A study of Mus musculus with 110 samples.

Results

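Interscapular brown adipose tissue (iBAT) of cold-exposed mice was compared between a methionine-restricted diet (MetR_CE) and the control diet (Ctrl_CE). The comparison rests on 14 libraries, 7 in each group, out of 27 iBAT libraries and 110 libraries of liver, iBAT, inguinal white fat (iWAT) and epididymal white fat (eWAT) in the series. The libraries were chosen by the group named in each sample title. Every mouse was a male C57BL/6N animal with no genetic change named in the labels, housed singly, and 16 weeks old at the end. Ctrl_CE mice ate a diet with 0.86% methionine and MetR_CE mice a diet with 0.12% methionine, and both diets lacked cysteine. Both groups ate their diet for 7 days at 22 °C and were then moved to 4 °C for 24 h. Mice kept at 22 °C on the same diets (Ctrl_RT, 6 libraries, and MetR_RT, 7 libraries) served as a second diet comparison. Each library came from the bulk tissue of 1 mouse.

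Brown adipocytes burn fuel to make heat. Their mitochondria carry UCP1, which lets protons back across the inner membrane without making ATP, and noradrenaline released in the cold drives both this activity and the transcription of genes such as Ucp1, Dio2 and Ppargc1a. Around the adipocytes lie capillaries, nerves, fibroblasts that lay down collagen, and resident macrophages, which clear debris, present antigen and remodel the tissue. Methionine is an essential amino acid that supplies methyl groups and, through transsulfuration, cysteine and glutathione, and its shortage is sensed through the ATF4 branch of the integrated stress response.

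The Ctrl_CE libraries held 16621428 to 31232349 counts each (median 23405414), and the MetR_CE libraries 12672686 to 29465562 (median 22286986). All 16 of 16 brown adipocyte markers were detected. Levels are in CPM, a gene's counts scaled to the size of its library, with TMM normalization. The brown markers summed to 26300 to 29600 CPM in Ctrl_CE and 24900 to 30700 CPM in MetR_CE. Ucp1 alone was at 11700 to 14100 CPM in Ctrl_CE and 12100 to 14800 CPM in MetR_CE. The 8 tested white adipocyte markers summed to 464 to 630 CPM in Ctrl_CE and 344 to 548 CPM in MetR_CE. Skeletal muscle RNA split the libraries: the 14 muscle markers summed to 1.64 to 1490 CPM in Ctrl_CE (median 916) and to 2.31 to 673 CPM in MetR_CE (median 115), and each group held 3 libraries with little muscle RNA and 4 with more. None of the 14 muscle markers was called between the diets, with a median log2 fold change of -1.56. Ctrl_CE replicate 4 stood apart by neutrophil transcripts, with 50.9 CPM summed over 10 genes against 1.18 to 8.36 CPM in the other Ctrl_CE libraries and 1.03 to 3.11 CPM in MetR_CE. The study left out an iBAT Ctrl_CE library that it does not name. An earlier comparison with the study's mean counts took this library to be Ctrl_CE replicate 5, which was not checked here. Counts without replicate 5 are given below. For replicate 1 of both groups, and of MetR_RT, the treatment tag named another group than the title. The tags of these mice in liver, iWAT and eWAT named the group of the iBAT title, and the titles were used.

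Of 23993 genes tested, 405 (1.69%) were differentially expressed (DEGs, adjusted p under 0.05 and a change of at least 1.5-fold in either direction). They comprised 115 genes higher in MetR_CE (0.479%) and 290 genes lower (1.21%). Lower genes therefore made up 71.6% of the DEGs. The median log2 fold change was 0.84 among the higher and -0.97 among the lower DEGs, against -0.0024 over all genes tested, and 9 higher and 29 lower DEGs changed at least 4-fold. Another 470 genes higher and 365 genes lower passed the adjusted p without reaching the fold threshold. The 7 MetR_CE libraries lay wholly above or below the 7 Ctrl_CE libraries for 90 DEGs, and for 1.37% of all genes tested. Without Ctrl_CE replicate 5 there were 392 DEGs, 115 of them higher, of which 348 were among the 405. When MetR_CE replicate 7, the shallowest library, was left out, 75 higher and 213 lower genes passed the thresholds. glmTreat, which tests the fold threshold itself, called 0 genes, with 802 at an unadjusted p under 0.05 and a lowest adjusted p of 0.0756, so the thresholds hold for the estimates and not for the lower bounds of the changes.

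The clearest group of lower genes was that of macrophages. All 9 tested macrophage markers fell, where 1.21% of all genes were called lower, and their median log2 fold change was -0.95. Their summed level was 65.5 to 154 CPM in Ctrl_CE (median 93.8) and 41 to 70.3 CPM in MetR_CE (median 49.3), so the groups overlapped narrowly. All 9 were also called without Ctrl_CE replicate 4, without replicate 5, and with the muscle marker level as a covariate, and 8 were called without replicates 4 and 5. In the libraries with little muscle RNA alone (3 against 3 mice) the named markers Mrc1, Adgre1, Lyz2, C1qa, C1qb and C1qc were not called, and with groups by the treatment tag the last 4 of these were not. C1qb and C1qc were not called in the libraries with more muscle RNA alone either. In bulk tissue, fewer macrophages and less of these transcripts per macrophage cannot be told apart.

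Mrc1, the mannose receptor of tissue-resident macrophages, was at 8.12, 11.8 and 14.5 CPM (lowest, median and highest library) in Ctrl_CE and at 3.9, 5.09 and 6.62 CPM in MetR_CE. Every MetR_CE library lay below every Ctrl_CE library, with a log2 fold change of -1.14 (SE 0.183, adjusted p = 0.000374 by edgeR's quasi-likelihood test). Adgre1, which encodes the macrophage surface protein F4/80, was at 3.01, 5.53 and 15.2 CPM in Ctrl_CE and at 1.15, 2.56 and 3.07 CPM in MetR_CE. The 2 highest Adgre1 libraries were Ctrl_CE replicates 4 and 2, at 15.2 and 10.3 CPM, and the groups overlapped by a single MetR_CE library (log2 fold change -1.48, SE 0.267, adjusted p = 0.00103). Lyz2, lysozyme of myeloid cells, was at 17.1, 25.7 and 56.7 CPM in Ctrl_CE and at 11.9, 14.5 and 18.6 CPM in MetR_CE. Here too Ctrl_CE replicates 4 and 2 were the highest, and 5 of 7 MetR_CE libraries lay below all Ctrl_CE libraries (log2 fold change -1.07, adjusted p = 0.00327). Csf1, the growth factor on which macrophages depend, was at 12.4, 14.3 and 16.3 CPM in Ctrl_CE and at 6.98, 8.84 and 11 CPM in MetR_CE. The groups did not overlap for Csf1 (log2 fold change -0.68, adjusted p = 8.66e-05), and its receptor gene Csf1r fell as well (log2 fold change -0.78, adjusted p = 0.00494). Il4ra, the receptor subunit for interleukin 4 and interleukin 13, lay at 28.3 to 37.8 CPM in Ctrl_CE and at 18.1 to 23.6 CPM in MetR_CE, again without overlap (log2 fold change -0.62, adjusted p = 1.75e-05).

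Genes through which macrophages recruit other cells and mark targets moved in the same direction. Of 26 chemokines and chemokine receptors, 6 fell and 0 rose (median log2 fold change -0.82), where 1.21% of all genes were called lower. Ccr2, the receptor that draws monocytes into tissue, was at 1.35, 2.14 and 3.42 CPM in Ctrl_CE and at 0.637, 1.08 and 1.51 CPM in MetR_CE. Ccr2 lay below all Ctrl_CE libraries in 5 of 7 MetR_CE libraries (log2 fold change -1.09, adjusted p = 0.00483). Ccl5, Ccl7, Ccl8 and Ccr1 were called too, with group means under 1 CPM, and without Ctrl_CE replicate 4 the list held 4 called genes. The abundant adipose chemokine Cxcl12 was not called (327.4 CPM in Ctrl_CE and 285.3 CPM in MetR_CE, group means, adjusted p = 0.39).

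Complement is a cascade of plasma proteins that tags targets for uptake, and C1q, its first component, is made in fat mainly by macrophages. Of 21 complement genes, 11 fell and 0 rose (median log2 fold change -0.66), where 1.21% of all genes were called lower. The 3 C1q chains are also in the macrophage list. C1qa was at 7.18, 11 and 19 CPM in Ctrl_CE and at 4.6, 6.78 and 8.63 CPM in MetR_CE, with 5 of 7 MetR_CE libraries below every Ctrl_CE library (log2 fold change -0.89, adjusted p = 0.00389). C1qb and C1qc changed by -0.95 and -0.83. C3ar1, the receptor of the C3a fragment, was at 2.04 to 4.56 CPM in Ctrl_CE and at 1.02 to 1.92 CPM in MetR_CE, without overlap (log2 fold change -1.02, adjusted p = 0.00244). C4b and Serping1, which encode a complement component and the inhibitor of the C1 protease, are expressed outside macrophages as well. C4b changed by -1.37 (adjusted p = 0.014) and Serping1 by -0.70 (adjusted p = 0.0165). Cd59a, a membrane inhibitor of the terminal complex, was higher by 0.22 (adjusted p = 0.0316), under the fold threshold. C6 was detected at 0 to 0.238 CPM in Ctrl_CE and 0 to 0.123 CPM in MetR_CE and was not called.

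Antigen presentation by class II molecules showed a smaller change. Of 19 genes of antigen presentation, 4 fell and 0 rose (median log2 fold change -0.42), where 1.21% of all genes were called lower. H2-Aa and H2-Ab1, the chains of the class II molecule, changed by -0.68 (adjusted p = 0.0203) and -0.76 (adjusted p = 0.0196), and Cd74, its invariant chain, by -0.64 (adjusted p = 0.0287). H2-Aa was at 15.1, 17.9 and 32.3 CPM in Ctrl_CE and at 8.74, 12 and 15.5 CPM in MetR_CE, so that 6 of 7 MetR_CE libraries lay below the lowest Ctrl_CE library. The highest value was that of Ctrl_CE replicate 2. Genes of the H2 family are similar in sequence, and reads could be split among them. The call of H2-DMb1, the fourth gene, was lost in 9 of the 14 fits without 1 library and that of Cd74 in 5, and H2-Aa and H2-Ab1 were not called without Ctrl_CE replicate 2 (H2-Aa also without MetR_CE replicate 1). B cells express class II genes too. Of 10 lymphocyte markers, 8 had a negative change (median log2 fold change -0.51) and 0 were called lower, and Ighm, the heavy chain of immunoglobulin M, rose. Ighm was at 1.49, 5.42 and 13.4 CPM in Ctrl_CE and at 7.19, 14.7 and 30.2 CPM in MetR_CE (log2 fold change 1.43, adjusted p = 0.00475), with overlapping groups.

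**Figure D1:**
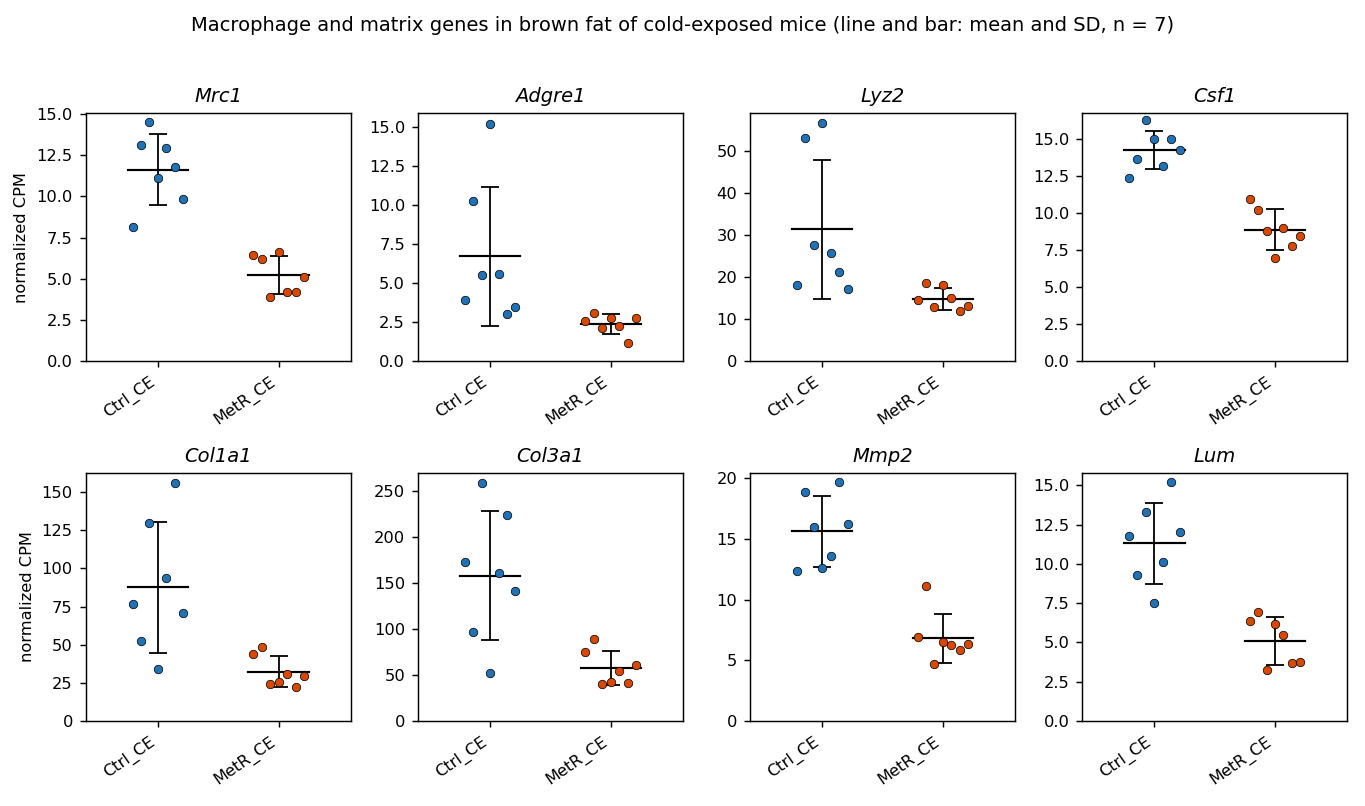
Normalized CPM (vertical axes, starting at 0) of 4 macrophage-related genes (upper panels) and 4 matrix genes (lower panels) in Ctrl_CE (blue) and MetR_CE (orange). Each point is 1 mouse and the line and bar are the mean and SD of 7 mice. The groups do not overlap for Mrc1, Csf1, Mmp2 and Lum, whereas for Adgre1 and Lyz2 the 2 highest Ctrl_CE points are replicates 4 and 2.

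The promoters of 2 of these lower genes are shown for the letters they hold upstream of the start site, from RefSeq for GRCm38.p6. Each run covers the 250 bases before the start, 5′ to 3′ on the strand of the gene, and capitals mark matches to CCAAT (the box bound by NF-Y) or GAGGAA (a purine-rich core of the kind bound by PU.1, a myeloid factor), or to their reverse complements ATTGG and TTCCTC.
Mrc1, chr2:14229164-14229413, plus strand: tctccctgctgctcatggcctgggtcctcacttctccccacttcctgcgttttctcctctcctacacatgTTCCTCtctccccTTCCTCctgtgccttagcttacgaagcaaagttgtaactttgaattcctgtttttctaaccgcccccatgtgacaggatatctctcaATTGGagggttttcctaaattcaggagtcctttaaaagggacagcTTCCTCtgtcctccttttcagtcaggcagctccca
H2-Aa, chr17:34287824-34288073, minus strand: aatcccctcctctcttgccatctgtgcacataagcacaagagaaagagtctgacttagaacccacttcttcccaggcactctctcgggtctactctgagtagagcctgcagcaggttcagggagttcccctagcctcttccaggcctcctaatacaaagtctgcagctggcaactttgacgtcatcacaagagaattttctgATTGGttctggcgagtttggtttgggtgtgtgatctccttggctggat
The Mrc1 window held 3 matches to GAGGAA, beginning 180, 167 and 35 bases before the start, and 1 to CCAAT at 80 bases. The H2-Aa window held 1 match to CCAAT, at 48 bases. Among the 6 called macrophage genes with a promoter in the table, GAGGAA was in 5 windows and CCAAT in 2. Over all 32851 promoters of the table GAGGAA was in 23.3% and CCAAT in 33.8%. Of the 290 lower DEGs, 208 were matched by symbol, and of their windows 30.7% held GAGGAA and 24% CCAAT. Of the 115 higher DEGs, 64 were matched, and of theirs 27.4% held GAGGAA and 35.7% CCAAT. A match of letters is a description and does not show that a factor binds there.

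Genes of the extracellular matrix formed the second group of lower genes. Of 27 collagen and matrix genes, 13 fell and 0 rose, where 1.21% of all genes were called lower. The median log2 fold change of the list was -0.61. A further 4 passed the adjusted p below the fold threshold in the lower direction, among them Col4a1 and Col4a2, the collagen of basement membranes, which changed by -0.50 and -0.52. The exception was Lox, which cross-links collagen and was higher by 0.51 (adjusted p = 0.0113), also under the fold threshold. With the muscle marker level as a covariate 11 genes of the list were called lower, and 12 without Ctrl_CE replicate 4. In the libraries with little muscle RNA alone (3 against 3 mice) Col1a1, Col1a2, Col3a1, Col5a1 and Adamts2 were not called, whereas Mmp2 was.

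Col1a1, the main chain of fibrillar collagen I, was at 34, 76.8 and 156 CPM in Ctrl_CE and at 22.5, 29.4 and 48.6 CPM in MetR_CE. It fell 2.71-fold (log2 fold change -1.44, SE 0.276, adjusted p = 0.0018), and 5 of 7 MetR_CE libraries lay below all Ctrl_CE libraries. The lowest Ctrl_CE library was replicate 4, the one with neutrophil transcripts. Col3a1, collagen III, was at 158 ± 70.7 CPM in Ctrl_CE and at 57.7 ± 18.9 CPM in MetR_CE (mean ± SD, n = 7 each). Replicate 4 was again the lowest Ctrl_CE library, and Col3a1 changed by -1.45 (adjusted p = 0.000879). Col1a2 changed by -1.40 (adjusted p = 0.000862) and Col5a1, a minor chain of the same fibrils, by -0.98 (adjusted p = 0.000722). Mmp2, a gelatinase that cleaves matrix, was at 12.4, 16 and 19.7 CPM in Ctrl_CE and at 4.73, 6.37 and 11.1 CPM in MetR_CE, without overlap (log2 fold change -1.19, adjusted p = 5.89e-05). Adamts2, which trims procollagen, also had groups that did not overlap, at 6.5 to 14.7 CPM in Ctrl_CE and 4.15 to 6.46 CPM in MetR_CE (log2 fold change -0.86, adjusted p = 0.000453).

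Markers of the fibroblasts and progenitors that make this matrix were lower as well. Of 8 such markers 4 fell (median log2 fold change -0.83), where 1.21% of all genes were called lower. With the muscle marker level as a covariate 3 did. The 4 were Pdgfra, Lum, Col1a1 and Col3a1, and both collagens are also in the matrix list, so the lists are not independent. The summed level of the 8, which includes these collagens, was at a median of 361 CPM in Ctrl_CE and 176 CPM in MetR_CE. Lum, the matrix proteoglycan lumican, was at 7.54 to 15.2 CPM in Ctrl_CE and at 3.25 to 6.95 CPM in MetR_CE (log2 fold change -1.14, adjusted p = 0.00419). Pdgfra, the receptor that marks adipocyte progenitors, changed by -0.60 (adjusted p = 0.0106), a call lost in 4 of the 14 fits without 1 library. Among the lower genes with the smallest p were 3 more secreted or matrix-associated ones. Srpx changed by -1.44, Cpxm1 by -2.11 and Adamts15 by -1.06, each with groups that did not overlap. Sfrp2, a secreted modulator of Wnt signals, changed by -1.79 at an adjusted p of 0.0488, and the call was lost in 17 of 29 alternative fits, among them that without Ctrl_CE replicate 5. Endothelial markers gave another picture: 0 of 8 were called, their median was -0.002, and their summed level was 821 to 1050 CPM in Ctrl_CE and 890 to 1010 CPM in MetR_CE. Of 7 Schwann cell and nerve markers, 0 were called.

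The promoter window of Col1a2, in the same form, shows a collagen gene beside the macrophage gene above.
Col1a2, chr6:4505368-4505617, plus strand: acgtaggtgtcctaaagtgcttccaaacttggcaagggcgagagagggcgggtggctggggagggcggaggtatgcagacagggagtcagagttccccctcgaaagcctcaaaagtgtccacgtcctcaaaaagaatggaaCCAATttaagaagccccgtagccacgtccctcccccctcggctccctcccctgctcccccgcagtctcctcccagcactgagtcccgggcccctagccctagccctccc
It held 1 match to CCAAT, 109 bases before the start, and none to GAGGAA. Of 10 windows of the called matrix genes, 1 held CCAAT and 4 held GAGGAA.

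Together, 7 lists of macrophage, chemokine, complement, antigen presentation, matrix, fibroblast and erythroid genes held 110 tested genes, or 0.458% of all. They held 46 of the 290 lower DEGs (15.9%) and 0 of the higher DEGs. These lists were pooled because they held lower calls, so the shares are a description. The erythroid markers, hemoglobin chains and Alas2, the first enzyme of heme synthesis in red cells, contributed 4 of 5 lower genes. Hba-a1 was at 16.2 to 33.2 CPM in Ctrl_CE and at 9.49 to 16.1 CPM in MetR_CE (log2 fold change -0.78, adjusted p = 0.00557). Without Ctrl_CE replicate 5 the erythroid list kept 2 calls. The part of blood in the tissue values was not tested.

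**Figure D2:**
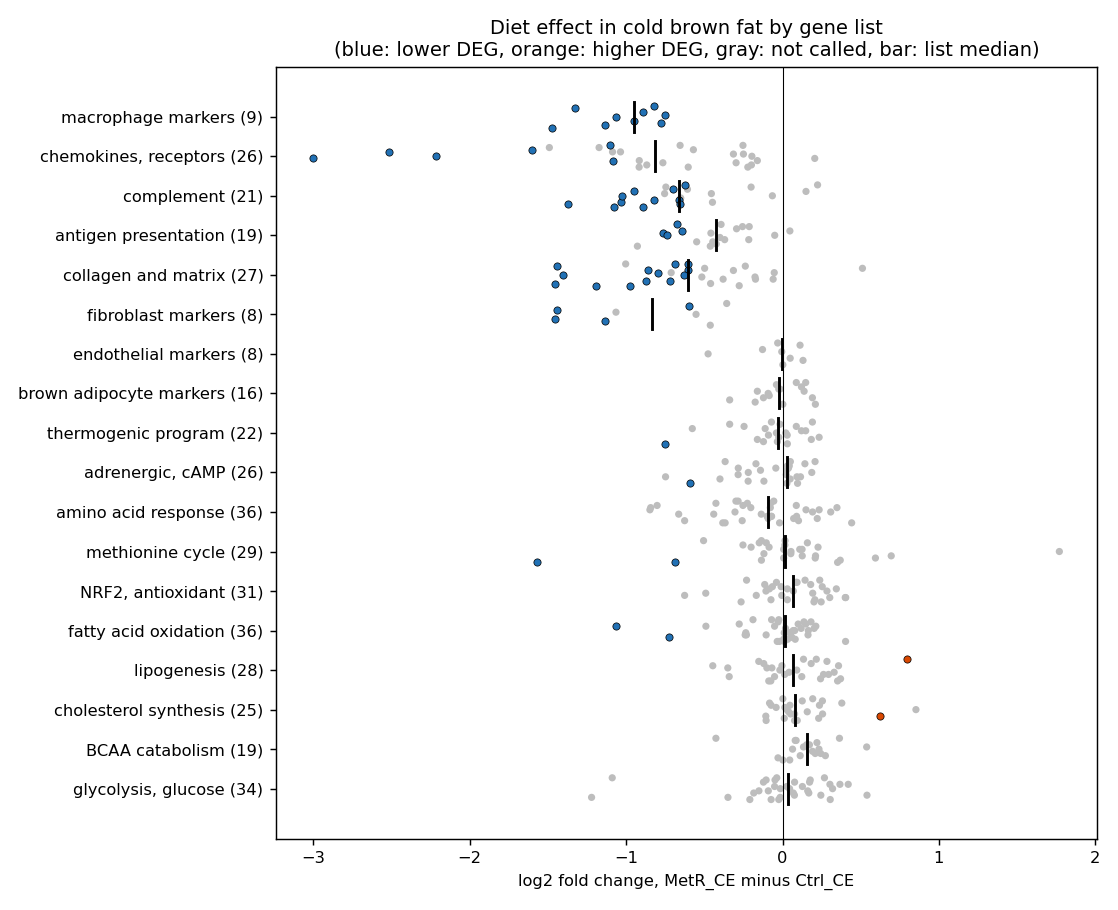
Log2 fold change of MetR_CE against Ctrl_CE (horizontal axis) for each tested gene of 18 lists, with the number of tested genes in brackets. Blue points are lower DEGs, orange points higher DEGs, gray points genes not called, and black bars list medians. The medians of the macrophage, chemokine, complement and matrix lists lie between -0.95 and -0.61, and those of the thermogenic, amino acid response and methionine lists lie near 0.

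The genes that rose in MetR_CE formed no list of comparable size. Peli2, an E3 ubiquitin ligase of innate immune signaling, had the smallest p of all genes. It was at 31, 33.8 and 38.8 CPM in Ctrl_CE and at 46.5, 55.3 and 61.9 CPM in MetR_CE, without overlap (log2 fold change 0.71, SE 0.0657, adjusted p = 2.23e-07). Acss3, a mitochondrial acyl-CoA synthetase for short-chain acids such as propionate, was at 30.2, 38.2 and 66 CPM in Ctrl_CE and at 69.9, 77.8 and 92.8 CPM in MetR_CE. The groups did not overlap, although Ctrl_CE replicate 4 came close (log2 fold change 0.96, adjusted p = 1.58e-05). Acsm3, a synthetase for medium-chain acids, rose 2.65-fold, from 5.43, 7.53 and 10.6 CPM to 13.4, 15.6 and 32 CPM (log2 fold change 1.41, adjusted p = 0.000129).

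Mttp, which loads lipid onto lipoproteins, was at 4.9 to 8.3 CPM in Ctrl_CE and at 8.34 to 14.9 CPM in MetR_CE (log2 fold change 0.79, adjusted p = 0.000512). Abhd3, a phospholipase, changed by 0.92 (adjusted p = 0.000453), and Cyp27a1, a mitochondrial sterol hydroxylase, by 0.63 (adjusted p = 0.000732). Slc25a1, the carrier that exports citrate from mitochondria for fatty acid synthesis, was at 379, 470 and 563 CPM in Ctrl_CE and at 664, 795 and 1170 CPM in MetR_CE, without overlap (log2 fold change 0.80, adjusted p = 0.0018). Sctr, the receptor for secretin, changed by 0.95 (adjusted p = 0.000738), Ano1, a calcium-activated chloride channel, by 0.63 (adjusted p = 0.000825), and Gabbr2, a subunit of the GABA-B receptor, by 2.05 from a median of 0.357 CPM to 1.72 CPM (adjusted p = 0.00268). Rnd2, a small GTPase, changed by 1.01 (adjusted p = 0.000846), and Slc15a5, of a family of peptide transporters, by 1.63 (adjusted p = 0.00358). The named higher genes of other or less certain roles were Ypel3, Tmem56 and Mturn, at 0.60, 0.80 and 0.68. Of 31 amino acid transporters 1 was called, where 1.69% of all genes were. This was Slc38a10 (log2 fold change 0.60, adjusted p = 0.00205). Its estimate lay at the fold threshold, and the call was lost in 10 of 29 alternative fits, among them that without Ctrl_CE replicate 4. Ypel3 likewise lost its call in 5 of the 14 fits without 1 library.

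The thermogenic program did not differ by diet beyond the spread between mice, with few exceptions. Of 22 thermogenic genes, 1 fell and 0 rose, where 1.21% of all genes were called lower. The median log2 fold change of the list was -0.03. Ucp1 was at 11700, 12200 and 14100 CPM in Ctrl_CE and at 12100, 13700 and 14800 CPM in MetR_CE. The groups overlapped, and the 95% confidence interval of the log2 fold change (0.09) ran from -0.06 to 0.24 (adjusted p = 0.56). Ppargc1a, the coactivator of mitochondrial biogenesis, was at 215 ± 36.2 CPM in Ctrl_CE and at 212 ± 73.3 CPM in MetR_CE (mean ± SD, n = 7 each), with an interval from -0.39 to 0.36. For Dio2, the enzyme that activates thyroid hormone, the interval was -0.62 to 0.29, and for Elovl3, a fatty acid elongase of brown fat, -0.28 to 0.2. These intervals leave room for changes of that size in either direction. Fabp3, a fatty acid carrier of oxidative tissues, was the gene that fell, from 657 ± 125 CPM to 390 ± 97.1 CPM (mean ± SD, n = 7 each) without overlap (log2 fold change -0.75, adjusted p = 0.0325). Skeletal and heart muscle express Fabp3 too, its call was lost in 6 of the 14 fits without 1 library, and without Ctrl_CE replicates 4 and 5 the list had 0 lower calls.

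Of 26 genes of adrenergic and cAMP signaling, 1 fell, where 1.21% of all genes were called lower. Adcy3, an adenylyl cyclase of adipocytes, was at 766, 1020 and 1460 CPM in Ctrl_CE and at 590, 695 and 825 CPM in MetR_CE (log2 fold change -0.59, adjusted p = 0.0241), and its call was lost in 6 of the 14 fits without 1 library. Adrb3, the adipocyte noradrenaline receptor, was at mean levels of 260.9 and 266.6 CPM and was not called. UCP1-independent heat cycles gave 3 calls among 12 genes, 2 lower and 1 higher, where 1.69% of all genes were called. Ckb, the creatine kinase of the futile creatine cycle, was at 134, 168 and 340 CPM in Ctrl_CE and at 57.8, 84.4 and 147 CPM in MetR_CE. In 6 of 7 MetR_CE libraries Ckb was below every Ctrl_CE library, and it fell 2.28-fold (log2 fold change -1.19, adjusted p = 0.00374). Gamt, which methylates guanidinoacetate to creatine with S-adenosylmethionine, was at a median of 1.77 CPM in Ctrl_CE and 1.14 CPM in MetR_CE (log2 fold change -0.69, adjusted p = 0.0165). Ryr2, a calcium release channel, changed by 0.92 (adjusted p = 0.0268) at a median of 1.27 CPM in Ctrl_CE and 2.63 CPM in MetR_CE. The call of Ryr2 was lost in 14 of 29 alternative fits and that of Gamt in 8. That of Ckb was lost in 4, among them both subsets of libraries by muscle RNA and the groups by treatment tag. Of 10 thyroid hormone genes and 81 nuclear genes of oxidative phosphorylation, 0 were called.

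Genes of methionine use gave few calls. Of 29 tested genes of the methionine cycle and methyl transfer, 2 fell and 0 rose (median log2 fold change 0.016), where 1.21% of all genes were called lower. The 2 were Gamt and Nnmt, both methyltransferases. Nnmt, which methylates nicotinamide, was at 38.9, 64.3 and 116 CPM in Ctrl_CE and at 9.63, 22.5 and 43 CPM in MetR_CE. A single MetR_CE library reached into the Ctrl_CE range, and Nnmt fell 2.97-fold (log2 fold change -1.57, adjusted p = 0.00113). Mat2a, the enzyme that makes S-adenosylmethionine outside the liver, was at 105 to 139 CPM in Ctrl_CE and at 122 to 140 CPM in MetR_CE and was not called (log2 fold change 0.11, adjusted p = 0.403). Adi1 and Apip, of the pathway that salvages methionine, were higher by 0.35 (adjusted p = 0.000722) and 0.16 (adjusted p = 0.0334), both under the fold threshold.

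Of 36 tested ATF4 targets and integrated stress response genes, 0 were called, with a median log2 fold change of -0.095. Cebpg passed the adjusted p at 0.31 (adjusted p = 0.00491). Asns, asparagine synthetase and a classic ATF4 target, was at 44.8, 77.6 and 89.7 CPM in Ctrl_CE and at 60.2, 64.6 and 80.2 CPM in MetR_CE, so the MetR_CE libraries lay within the Ctrl_CE range (95% interval -0.33 to 0.13). Psat1, Phgdh, Trib3 and Chac1 were not called either. Psat1, of serine synthesis, ranged in the control group from 3.38 CPM in Ctrl_CE replicate 3 to 24.4 CPM, against 8.71 to 14.9 CPM in MetR_CE. Fgf21, a hormone that other tissues release on protein restriction, was at 2.02 to 6.73 CPM in Ctrl_CE and at 2.54 to 4.84 CPM in MetR_CE (adjusted p = 0.926). Of 27 genes of cysteine, sulfide and glutathione metabolism and 31 NRF2 and antioxidant genes, 0 were called. Cdo1, which oxidizes cysteine, and Gclm, a subunit of the first enzyme of glutathione synthesis, were higher by 0.17 and 0.21 (adjusted p = 0.246 and 0.216). Sqor and Suox, which oxidize sulfide and sulfite, passed the adjusted p at 0.35 and 0.30. The pentose phosphate enzymes Taldo1 and Tkt, counted among the antioxidant genes because they regenerate NADPH, passed it at 0.34 and 0.40.

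In lipid metabolism the changes ran in opposite directions for single enzymes. Of 36 genes of fatty acid oxidation, 2 fell and 0 rose (median log2 fold change 0.015), where 1.21% of all genes were called lower. Cpt1a, which carries long-chain fatty acids into mitochondria and is the minor isoform of brown adipocytes beside Cpt1b, was at 50.9, 51.7 and 84.2 CPM in Ctrl_CE and at 29.9, 35.6 and 40.1 CPM in MetR_CE. No MetR_CE library reached the Ctrl_CE range (log2 fold change -0.73, SE 0.106, adjusted p = 0.00013). Acaa1b, a thiolase of peroxisomal oxidation, was at 67.6, 106 and 122 CPM in Ctrl_CE and at 34.6, 49.8 and 60.7 CPM in MetR_CE, also without overlap (log2 fold change -1.07, adjusted p = 1.82e-05). Cyp4b1, a fatty acid hydroxylase, changed by -0.79 (adjusted p = 3.01e-05), and Cdh13, the adiponectin-binding T-cadherin, by -0.61 (adjusted p = 1.82e-05).

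On the synthetic side, Slc25a1 was the called gene of 28 lipogenesis and esterification genes, and 4 more were higher and 2 lower at the adjusted p alone. Over all genes, 0.479% were called higher and 5.17% passed the adjusted p in either direction. Fasn, fatty acid synthase, was at 30400 to 40200 CPM in Ctrl_CE and at 40200 to 47600 CPM in MetR_CE (log2 fold change 0.36, adjusted p = 0.00672). Acaca, Elovl5 and Gpd1 were higher by 0.35, 0.37 and 0.22, whereas Srebf1 and Dgat1 changed by -0.35 and -0.34. Scd1 and Acly were not called (adjusted p = 0.893 and 0.303). Of 25 cholesterol synthesis genes, Fdft1, squalene synthase, rose (24.5, 34.7 and 47.1 CPM in Ctrl_CE and 51.7, 56.6 and 66.4 CPM in MetR_CE, log2 fold change 0.62, adjusted p = 0.0092), whereas Hmgcs1, HMG-CoA synthase, changed by 0.01.

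Catabolism of branched-chain amino acids showed small changes in 1 direction. None of 19 tested genes reached the fold threshold, and the list median was 0.154. Over all genes 5.17% passed the adjusted p in either direction, whereas in this list 8 passed it, all as higher and 0 as lower. Pcca, a subunit of propionyl-CoA carboxylase, was highest among them at 0.54 (adjusted p = 1.58e-05), followed by Mccc2 at 0.36 and Bckdha, of the branched-chain ketoacid dehydrogenase, at 0.27. Likewise 6 of 34 glycolysis and glucose genes and 4 of 20 citric acid cycle genes passed the adjusted p as higher, with 1 glycolysis gene and 0 citric acid cycle genes lower. Pdk1, a kinase of pyruvate dehydrogenase, was highest at 0.54 (adjusted p = 0.000133), and Suclg2 reached 0.36 (adjusted p = 0.000458).

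**Figure D3:**
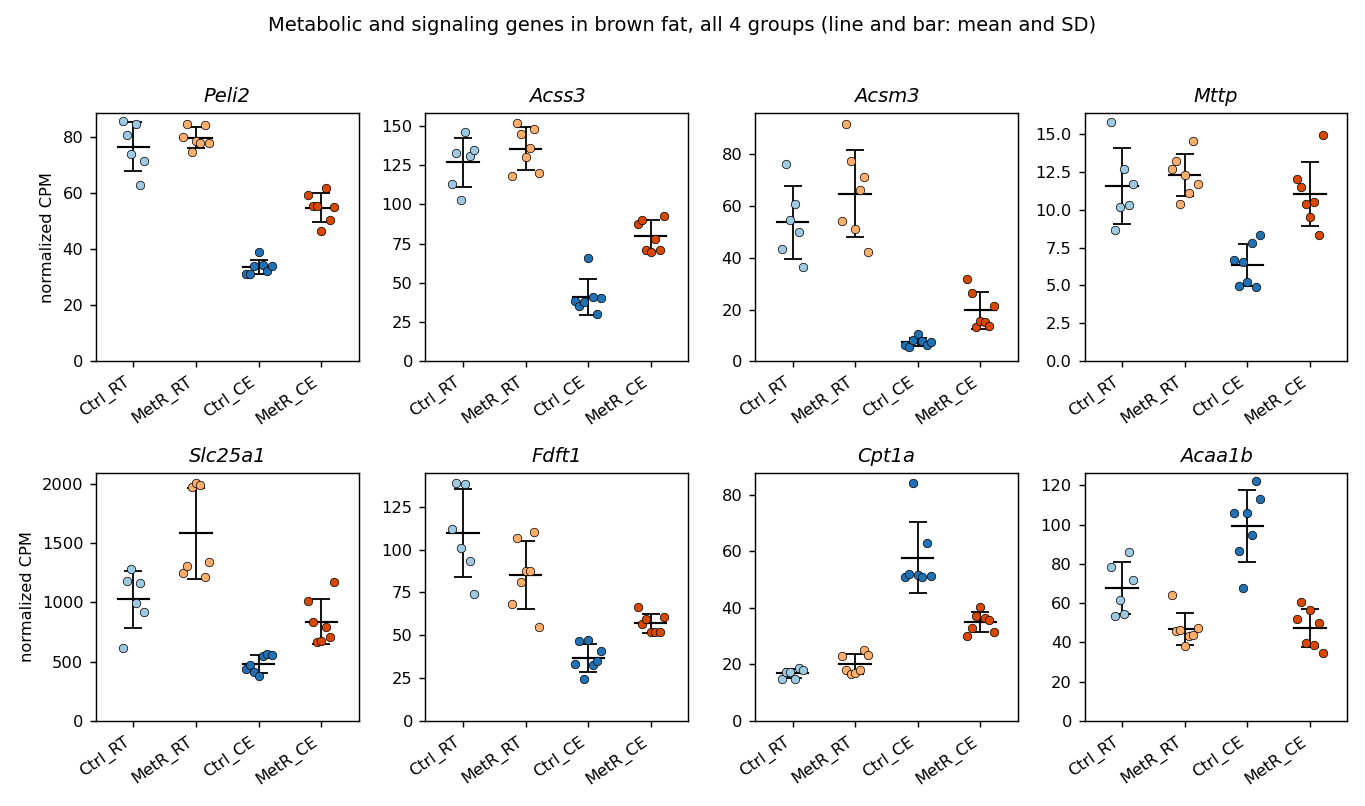
Normalized CPM (vertical axes, starting at 0) of 8 metabolic and signaling genes in iBAT of Ctrl_RT (n = 6), MetR_RT, Ctrl_CE and MetR_CE mice (n = 7 each). Points are mice, lines and bars the mean and SD. Peli2, Acss3 and Acsm3 are lower in both cold groups than at 22 °C and separate by diet in the cold, and Cpt1a is at a mean of 57.7 CPM in Ctrl_CE and 34.8 CPM in MetR_CE against 16.8 and 20.1 CPM at 22 °C.

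The same diet comparison at 22 °C, which shares no library with the one in the cold, called 602 DEGs (2.51%), 128 higher (0.533%) and 474 lower (1.98%). Of the 290 genes lower in the cold, 92 were lower at 22 °C too (31.7% of the cold and 19.4% of the 22 °C genes). Of the 115 higher genes, 14 were higher at both temperatures (12.2% and 10.9%). No gene was a DEG in opposite directions. Collagen genes were lower at both temperatures: Col1a1 changed by -1.44 in the cold and by -1.75 at 22 °C, and 15 of 27 matrix genes were called lower at 22 °C against 13 in the cold. Of the macrophage markers, 6 of 9 were called lower at 22 °C, with Mrc1 at -0.89 there and -1.14 in the cold. Adgre1 was not called at 22 °C (log2 fold change -0.53, adjusted p = 0.257), and the test of the difference between the temperatures did not pass either (-0.94, adjusted p = 0.266).

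The interaction of diet and temperature, which tests whether the 2 diet effects differ, passed the thresholds for 110 genes (0.458%). Among the DEGs of the cold comparison it did so for 18 higher and 7 lower genes. These DEGs were selected by a contrast that is part of the interaction, so that share is a description. Without Ctrl_CE replicate 4 the interaction was called for 209 genes, among them 30 higher and 13 lower DEGs. Peli2 had means of 76.5 CPM in Ctrl_RT, 79.7 CPM in MetR_RT, 33.6 CPM in Ctrl_CE and 54.8 CPM in MetR_CE. Its level was thus lower in the cold on both diets and differed by diet in the cold (interaction 0.65, SE 0.0936, adjusted p = 0.000563). Acss3 and Acsm3 followed the same order of group means, with interactions of 0.86 (adjusted p = 0.00843) and 1.13 (adjusted p = 0.0368). For Acsm3 the means were 53.7, 64.9, 7.48 and 19.7 CPM. Sctr had an interaction of 0.95 (adjusted p = 0.0345). Fdft1 was lower in the cold as well, at means of 109, 85, 37 and 56.9 CPM (interaction 0.99, adjusted p = 0.0163).

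Cpt1a showed the reverse. It was at means of 16.8 CPM in Ctrl_RT and 20.1 CPM in MetR_RT, and at 57.7 CPM in Ctrl_CE and 34.8 CPM in MetR_CE (interaction -0.98, SE 0.156, adjusted p = 0.00153). In this gene the diet effect was 0.26 at 22 °C, not called, and -0.73 in the cold. For 2 named genes the interaction passed with a diet effect called, or past the adjusted p, at 22 °C and not in the cold. Elovl3 was at means of 331 CPM in Ctrl_RT and 598 CPM in MetR_RT but at 1520 and 1480 CPM in Ctrl_CE and MetR_CE (interaction -0.89, adjusted p = 0.00843). Asns, one of the 6.89% of genes that passed the adjusted p at 22 °C, changed by 0.57 there (adjusted p = 0.00233) and by -0.10 in the cold (interaction -0.67, adjusted p = 0.0352). Dio2, which fell with MetR at 22 °C (log2 fold change -0.98, adjusted p = 0.00989), had an interaction of 0.82 that did not pass the test (adjusted p = 0.259). Ucp1 passed the adjusted p at 22 °C (0.26, adjusted p = 0.0315), and its interaction did not (-0.17, adjusted p = 0.52).

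The windows before the starts of Peli2 and Cpt1a, the 2 DEGs with the smallest interaction p and with opposite direction, are given in the form used above.
Peli2, chr14:48120619-48120868, plus strand: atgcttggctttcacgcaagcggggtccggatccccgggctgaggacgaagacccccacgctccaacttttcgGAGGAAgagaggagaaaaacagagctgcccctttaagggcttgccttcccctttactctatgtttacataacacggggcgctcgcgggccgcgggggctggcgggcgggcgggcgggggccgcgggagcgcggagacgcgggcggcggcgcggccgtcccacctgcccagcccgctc
Cpt1a, chr19:3323051-3323300, plus strand: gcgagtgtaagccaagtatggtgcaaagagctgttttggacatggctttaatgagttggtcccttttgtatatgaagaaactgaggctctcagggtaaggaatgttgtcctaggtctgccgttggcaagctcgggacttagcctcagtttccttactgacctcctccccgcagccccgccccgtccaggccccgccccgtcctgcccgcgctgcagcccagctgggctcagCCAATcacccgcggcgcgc
Peli2 held 1 match to GAGGAA, 177 bases before the start, and Cpt1a held 1 match to CCAAT, 19 bases before it.

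**Figure D4:**
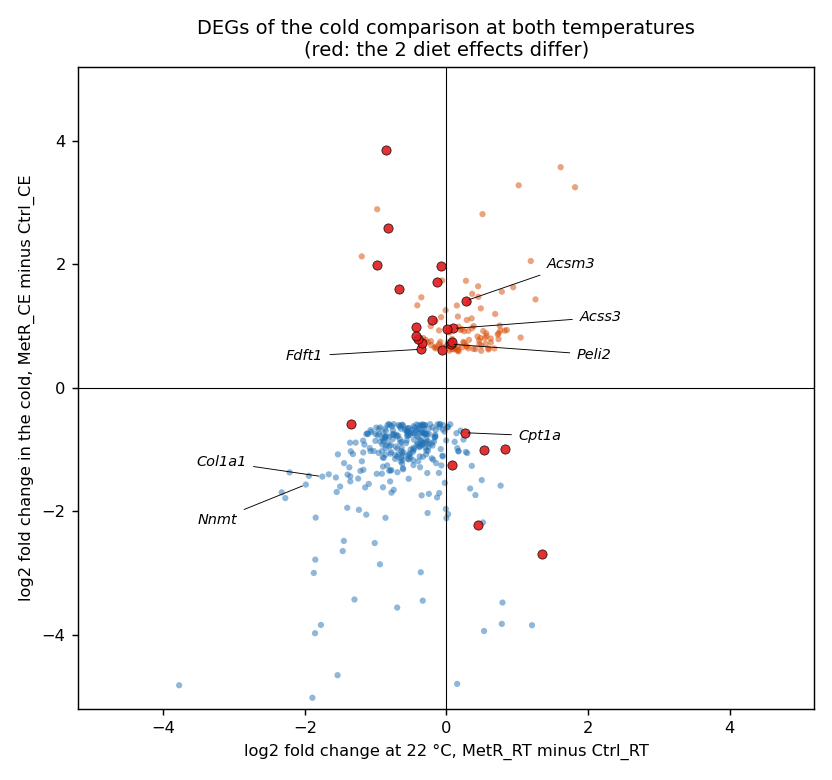
Log2 fold change of the 405 DEGs of the cold comparison (vertical axis) against the diet effect of the same genes at 22 °C (horizontal axis). Orange points are higher and blue points lower DEGs, and red points are the 25 DEGs whose diet effects differ by the interaction test. Of the lower DEGs, 89.3% lie left of 0, where both effects are negative, against 55.9% of all genes tested, and of the higher DEGs 70.4% lie right of 0, against 44%. Lower at both temperatures are genes such as Col1a1 and Nnmt. Peli2 and Acss3 lie near 0 at 22 °C, and Acsm3 and Cpt1a lie at 0.27 and 0.26 there, none of them called at 22 °C.

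The diet comparison in the cold was also set beside that in iWAT, in a joint limma fit with the mouse as a block (28343 genes tested, 54 libraries of both depots). iWAT had 6 MetR_CE and 7 Ctrl_CE libraries, since the mouse of iBAT MetR_CE replicate 3 had no iWAT library. The iWAT values and calls and the depot differences come from this fit. The iBAT values and calls are those of the edgeR fit above, so the printed pairs need not give the printed difference. iWAT had 1334 DEGs (4.71%), 467 higher (1.65%) and 867 lower (3.06%). Of the 290 genes lower in iBAT, 136 were lower in iWAT (46.9%), which is 18.8% of the lower iWAT genes measured in both depots. Of the 115 higher genes, 7 were higher in iWAT (6.09%, or 1.61% of its higher genes). In the opposite direction, 10 of the lower iBAT genes were DEGs higher in iWAT and 4 of the higher ones DEGs lower in iWAT. Macrophage markers were lower in both depots, at 9 of 9 in each, with median log2 fold changes of -0.95 in iBAT and -1.31 in iWAT. Mrc1 changed by -1.14 and -1.31, Col1a1 by -1.44 and -1.66, and Mmp2 by -1.19 and -1.08, and none of the 3 differed between depots by the test (adjusted p of 0.887 and above).

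The diet effect differed between the depots for 310 genes (1.09%) in all, for 18 of the higher and 32 of the lower iBAT DEGs. An edgeR fit without the mouse block called 161 genes. The genes concerned included fuel genes. Cpt1a changed by -0.73 in iBAT and by 0.61 in iWAT (difference -1.34, adjusted p = 0.000682), and Acaa1b by -1.07 and 0.37 (difference -1.45, adjusted p = 0.000739). Nnmt changed by -1.57 in iBAT and by 0.42 in iWAT (difference -2.06, adjusted p = 0.00171), and Fabp3 by -0.75 and 1.78 (difference -2.57, adjusted p = 0.0174). Skeletal muscle expresses Fabp3 too. The muscle markers, not called in either depot, had median log2 fold changes of -1.56 in iBAT and 2.59 in iWAT. The part of muscle RNA in the Fabp3 difference was not tested. Of 28 lipogenesis and esterification genes, 7 differed between depots, with list medians of 0.07 in iBAT and -0.46 in iWAT. Slc25a1 changed by 0.80 in iBAT and by -1.07 in iWAT (difference 1.82, adjusted p = 0.0111), Acly by 0.26 and -1.39 (difference 1.65, adjusted p = 0.026), and Fasn by 0.36 and -0.71 (difference 1.04, adjusted p = 0.0217). Ckb and Adcy3 also differed, at -1.35 and -1.24. Trib3 and Fgf21, which were not called in iBAT, were higher in iWAT by 1.36 (adjusted p = 4.03e-06) and 1.26 (adjusted p = 0.000971), and for both the depots differed (adjusted p = 0.0426 and 0.0463). Ucp1 changed by 0.09 in iBAT and by 0.74 in iWAT, and its difference did not pass the test (adjusted p = 0.63).

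**Figure D5:**
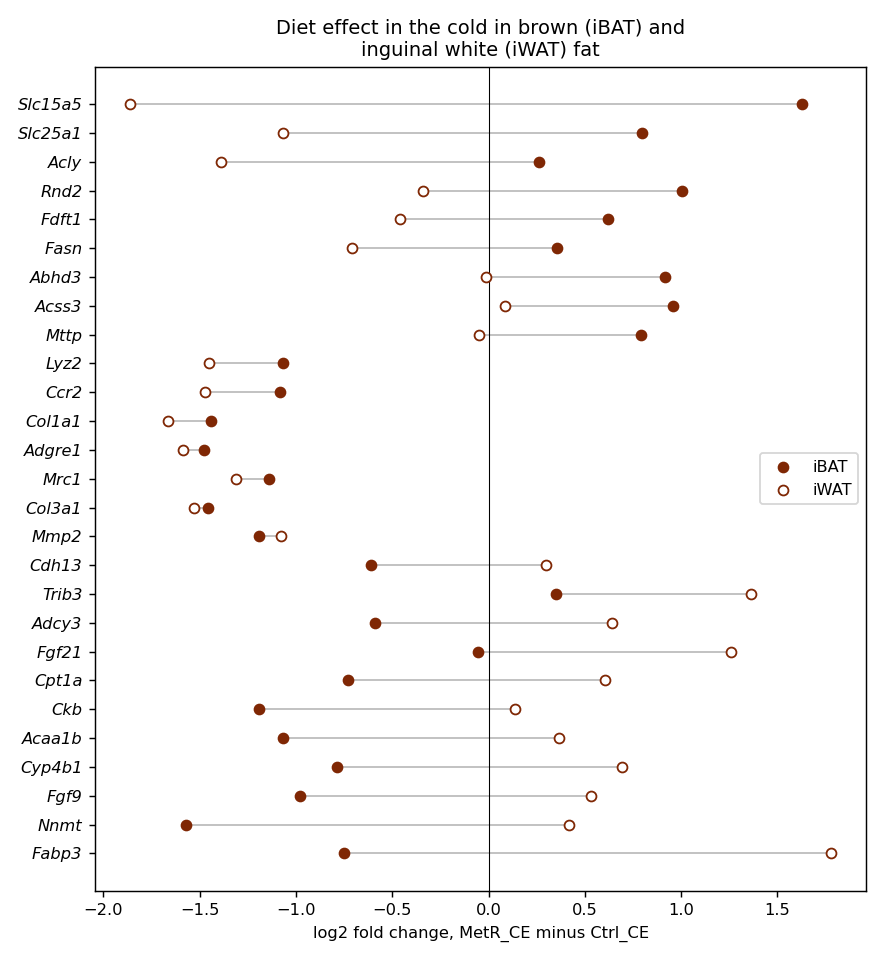
Log2 fold change of MetR_CE against Ctrl_CE in iBAT (filled) and iWAT (open) for 20 named genes whose diet effects differ between the depots and for 7 macrophage and matrix genes. The iBAT values are from the edgeR fit and the iWAT values from the joint limma fit. The 7 macrophage and matrix genes are negative in both depots, whereas Slc15a5, Slc25a1 and Rnd2 are positive in iBAT alone and Cpt1a, Acaa1b, Cyp4b1, Nnmt and Fabp3 negative in iBAT alone.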

How the data were processed

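Poly(A) RNA of iBAT from single mice was sequenced with paired reads of 50 bases, at an RNA integrity number of at least 8.5. Per the labels, the authors deposited raw counts per gene for each tissue without normalization; the counts are whole numbers. The methods name STAR 2.7.9a with featureCounts 2.0.3 on mm10 and, in parallel, Salmon 1.9.0, and which of them made the deposited counts was not settled. Of 56884 Ensembl identifiers, 51948 were paired with a symbol through a RefSeq-based reference table.

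Genes with at least 10 counts over the 27 iBAT libraries were tested with edgeR 4.0.16 (TMM, quasi-likelihood test without robust estimation) in R 4.3.3, with the 4 groups in 1 fit, which share an estimate of the spread. Adjusted p values are Benjamini-Hochberg values over all genes tested, and the SE is the fold change divided by the root of F. Levels are TMM-normalized CPM. The iWAT values and the depot differences came from limma 3.58.1 (voom, within-mouse correlation 0.0718), and the iBAT values beside them from edgeR. DESeq2 1.42.0 with and without apeglm 1.24.0, RLE factors, other filters, the replicate block, a muscle covariate and omissions of libraries were alternatives. Replicates were separate mice, so p values measure the spread between mice. No pair of libraries agreed within sampling noise.

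Named genes were, among DEGs with a symbol that is no predicted name and a mean of at least 1 CPM, the 12 with the smallest p and the 4 with the largest change in each direction, up to 4 DEGs of each list by p, and 20 genes given whatever their result; genes of the lists outside this rule were chosen after their values were seen. The comparison, the 45 gene lists and the tests were chosen with earlier results of these data known. A list of neutrophil genes was added after the values were seen. The replicate numbers in the titles did not pair the mice, since same-numbered mice deviated from their group means with correlations of -0.642 to 0.632 across genes. Promoter sequences are RefSeq windows on GRCm38.p6, matched by symbol. The authors' comparison columns were not part of the files used. Values of some genes of the lists are not reported here.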

Additional observations from a re-analysis of the deposited data

Results flagged for a closer look

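Among 184 combinations of a named gene and a group of 7 libraries, 13 held a library whose gap to its nearest neighbour was large for the range of the group on the log2 CPM scale (Dixon's ratio above the 95% critical value), where chance gives about 1 in 20. In Ctrl_CE the highest library stood apart for Acss3 (replicate 4, 66 CPM, ratio 0.609), Mt1 (replicate 4, ratio 0.707), Cpt1a (replicate 3, 84.2 CPM, 0.582), Ppp1r1a (replicate 3, 40.7 CPM, 0.574), Sctr (replicate 3, 2.76 CPM, 0.597), Lep (replicate 3, 16 CPM, 0.658), H2-Ab1 (replicate 2, 41.8 CPM, 0.592), H2-Aa (replicate 2, 32.3 CPM, 0.581) and Trib3 (replicate 5, 11 CPM, 0.58). The lowest Ctrl_CE library stood apart for Rnd2 (replicate 3, 2.76 CPM, 0.598). In MetR_CE the highest library stood apart for Cyp27a1 (replicate 7, 59.5 CPM, 0.646), and the lowest for Cdh13 (replicate 7, 27.4 CPM, 0.604) and Adgre1 (replicate 6, 1.15 CPM, 0.628). Ctrl_CE replicate 3 accounted for 5 of the 13.

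The diet effect in the cold differed from that at 22 °C, by the interaction test, for 8 named genes. The differences on the log2 scale were 0.65 for Peli2, 0.86 for Acss3, 1.13 for Acsm3, 0.95 for Sctr, 0.99 for Fdft1, -0.98 for Cpt1a, -0.67 for Asns and -0.89 for Elovl3.

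The diet effect in iBAT differed from that in iWAT for 20 named genes. The difference, iBAT minus iWAT on the log2 scale, was positive for Slc15a5 (3.45), Slc25a1 (1.82), Acly (1.65), Rnd2 (1.33), Fdft1 (1.08), Fasn (1.04), Abhd3 (0.91), Acss3 (0.88) and Mttp (0.81). It was negative for Fabp3 (-2.57), Nnmt (-2.06), Fgf9 (-1.59), Cyp4b1 (-1.49), Acaa1b (-1.45), Ckb (-1.35), Cpt1a (-1.34), Fgf21 (-1.26), Adcy3 (-1.24), Trib3 (-0.99) and Cdh13 (-0.94).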

How the results depend on the processing

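Leaving out 1 of the 14 libraries at a time gave 75 to 152 higher and 213 to 336 lower DEGs, and at most 461 in all, and each of the 405 genes kept its sign in all 14 fits. The lowest counts were those without MetR_CE replicate 7, the shallowest library. Without the 3 libraries whose treatment tag names another group (replicate 1 of MetR_RT, Ctrl_CE and MetR_CE) there were 349 DEGs, 75 of them higher. For these mice the tags in liver, iWAT and eWAT name the group of the title, unlike the iBAT tag. With groups by that tag there were 27 (1 higher and 26 lower), glmTreat gave 0 in either direction, the libraries with little muscle RNA alone gave 8 (2 higher and 6 lower, 3 against 3 mice), and those with more muscle RNA alone gave 231 (65 higher and 166 lower, 4 against 4 mice). These splits by muscle RNA, and the fit without Ctrl_CE replicates 4 and 5 (429 DEGs, 147 of them higher), were chosen after seeing the data. The other settings stayed within 1.5 times of the main count: 496 with DESeq2, 317 with apeglm shrinkage, 411 with RLE factors, 425 with filterByExpr, 365 with no filter, 390 with robust dispersions, 426 with the muscle covariate and 333 with the 14 libraries alone. With the replicate number as a block there were 394 DEGs, 115 of them higher and 361 of them among the 405, and the interaction was called for 80 genes. Since a mouse deviated most like its own number in the other group in 1 of 7 pairs, the numbers were not taken as a pairing. The interaction, 110 genes, was called for 89 without Ctrl_CE replicate 5 and for 209 without Ctrl_CE replicate 4, and the depot difference, 310 genes, was called for 161 with edgeR and no mouse block. Where no cause is named, the cause was not tested.

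Of the 72 named DEGs, 0 changed sign under any of 29 alternatives, and 47 kept their call in every fit without 1 library, of which the one without MetR_CE replicate 7 lost most (13). All 72 calls were lost under glmTreat, 68 in the libraries with little muscle RNA, 61 with groups by tag, 26 in those with more muscle RNA and 15 with apeglm. Those of S100a9, Mt1, Mt2 and Slc38a10 were lost without Ctrl_CE replicate 4. Calls of Mcm5 and Alas2 were lost in 6 of the 14 fits, of Hbb-bt in 5, of Fdft1 and Ano1 in 2, and of Cdh13, Cyp27a1, Hbb-bs, Igfbp4 and Ppp1r1a in 1. Signs turned in genes that were not called. Over the fits without 1 library the log2 fold change ran from -0.074 to 0.357 for Chac1, from -0.137 to 0.002 for Elovl3, from -0.17 to 0.166 for Fgf21, from -0.432 to 0.039 for Phgdh, from -0.187 to 0.044 for Ppargc1a and from -0.224 to 0.039 for Scd1. Without the 3 libraries of another tag Chac1 was at -0.104 and Ppargc1a at 0.083, and with groups by tag Chac1 was at -0.107, Ppargc1a at 0.133 and Dio2 at 0.018. Without Ctrl_CE replicates 4 and 5 Dio2 was at 0.007 and Fgf21 at 0.167. In the libraries with little muscle RNA Cth was at 0.086, Scd1 at 0.054, Elovl3 at 0.057, Fgf21 at 0.073 and Ppargc1a at 0.098, and in those with more, Nqo1 was at -0.071.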

Other observations

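Other groups of genes moved little or in few members. Over all genes, 5.17% passed the adjusted p in either direction. Of 21 endoplasmic reticulum chaperone and unfolded protein response genes, 5 passed it as lower and 1 as higher. Sdf2l1 was the called one, at 6.94, 7.92 and 9.06 CPM in Ctrl_CE and at 3.79, 4.46 and 6.43 CPM in MetR_CE without overlap (log2 fold change -0.73, adjusted p = 0.0046 by edgeR). Hspa5, the chaperone BiP, changed by -0.30 (adjusted p = 0.00806), Creld2 by -0.44 and Manf by -0.36, and Hyou1 was higher by 0.21. Of 86 cytosolic ribosomal protein genes, 75 had a negative change and 0 were called (median -0.085). Of 18 clock genes and 26 interferon-stimulated genes, 0 were called.

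Among growth-related genes, Myc lay at 1.14 to 3.03 CPM in Ctrl_CE and at 0.534 to 1.08 CPM in MetR_CE without overlap (log2 fold change -1.32, adjusted p = 0.00527). E2f1 and Mcm5, of 27 proliferation genes, changed by -0.89 (adjusted p = 0.00719) and -0.59 (adjusted p = 0.0295). Over all genes, 1.21% were called lower. Fgf9, a growth factor, was at 4.86, 6.14 and 8.45 CPM in Ctrl_CE and at 1.65, 2.9 and 5.57 CPM in MetR_CE (log2 fold change -0.98, adjusted p = 0.00241), at means of 0.94 and 1.04 CPM in Ctrl_RT and MetR_RT. Igfbp4, which binds insulin-like growth factors, changed by -0.64 (adjusted p = 0.00256). Cnn1 was the called gene of 6 smooth muscle markers (log2 fold change -0.81, adjusted p = 0.0115). Serpina3n, an acute-phase protease inhibitor, changed by -1.70 in the cold (adjusted p = 0.0103) and by -2.33 at 22 °C (adjusted p = 0.000657). Ppp1r1a, an inhibitor of protein phosphatase 1, and Fxyd5, a regulator of the sodium pump, changed by -0.65 and -0.72 without overlap of the groups. Lep was at 4.57 to 16 CPM in Ctrl_CE and 2.83 to 5.39 CPM in MetR_CE and was not called (adjusted p = 0.209).

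The metallothioneins Mt1 and Mt2 and the neutrophil gene S100a9 had calls that rest on Ctrl_CE replicate 4. Mt1 was highest there, against 100 to 136 CPM in the other Ctrl_CE libraries, and S100a9 at 14.1 CPM against 0 to 1.31 CPM. Of the 10 neutrophil genes added later, 6 were called lower, and 0 without that library.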
